A study of Mus musculus with 4 samples.

Results

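The claudins of skin and other epithelia were examined in the skin of mouse embryos at stage E16.5 (E, embryonic day), with and without overexpression of the transcription factor Ovol2. The 10 genes Cldn1, Cldn3, Cldn4, Cldn5, Cldn6, Cldn7, Cldn8, Cldn10, Cldn12 and Cldn23 were chosen by name among 19938 genes on the array. Each was read through the probe set annotated to it alone, and the brightest probe set, by its mean over all 4 arrays, stood for a gene with several. That mean chose the probe set and is not a result. The 10 genes themselves were chosen with earlier results of these data known.

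The 2 control arrays held skin RNA of TRE-Ovol2-Flag or wild-type embryos, and the 2 Ovol2 BT arrays that of embryos with both TRE-Ovol2-Flag and K5-tTA. TRE is a tetracycline-responsive promoter, and the K5-tTA transactivator is driven by the keratin 5 promoter of basal keratinocytes, so the transgene is aimed at the epidermis while the RNA came from whole skin. RNA of 2 mice was pooled on each array. The controls did not carry K5-tTA. The labels give the strain as CB6F1 for controls and FVB/N for Ovol2 BT, although they also speak of littermates, so genotype, transactivator and labelled strain cannot be told apart here. All arrays were labelled female, yet the Y-linked transcripts Eif2s3y, Kdm5d and Uty had levels, as log2 of the intensity plus 16, between 9.19 and 10.40 on replicate 1 of either group and between 4.24 and 6.17 on replicate 2. The X-linked transcript Xist was at 7.07 on control replicate 1 and 8.36 on Ovol2 BT replicate 1. It was at 13.16 on control replicate 2 and 10.80 on Ovol2 BT replicate 2. For Cldn6 and Cldn8, differences between arrays of the same replicate number are therefore given below beside those between the groups. They are not given for the other genes.

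Claudins are membrane proteins that span the membrane several times and join into the strands of the tight junction, where they seal the space between neighbouring cells or let selected ions through it. In the epidermis tight junctions lie in the granular layer, beneath the cornified barrier. Cldn1 is needed there, and mice without it lose water through the skin and die after birth. In the fetus a transient outer layer, the periderm, covers the epidermis until the barrier has formed.

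Ovol2 BT replicate 2 stood apart over the whole array, with 893 genes over 2-fold below the average of the remaining arrays; this count was 30 to 43 for each of those. Over all genes 4 were called, namely Akr1d1, Krt6b, Krt8 and Ovol2. Skin was checked by its markers: the summed intensities of keratinocyte, granular layer and dermal fibroblast genes were 51113 or more on every array. Not every listed gene was bright, and Rptn of the granular layer list read between 42.5 and 116. Granular layer genes, where claudin strands lie, summed to 75992 and 69242 on the control arrays, against 79495 and 74514 in Ovol2 BT, and dermal fibroblast genes to between 61017 and 68938. Bright genes such as Lor and Hrnr weigh most in the granular layer sums. Of its 11 genes tested none was called. In limma 4 were higher and 1 lower at an unadjusted p under 0.05, against 4.23% of all genes. Their log2 differences ran from -1.22 for Tgm3 to 1.35 for Flg2. Erythroid genes (4071 and 7545 in controls, 4635 and 15604 in Ovol2 BT) and skeletal muscle genes (51634 and 30529, then 28983 and 56226) differed between arrays of one group.

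Of the 10 claudins, Cldn6 was higher and Cldn8 lower on both Ovol2 BT arrays by a wide margin, and the other 8 differed by at most 0.30 on the log2 scale. None passed limma's test at an adjusted p under 0.05 over all 14953 genes tested, a threshold that 0.0268% of those genes passed. At an unadjusted p under 0.05 there were 2, Cldn6 and Cldn8, against 4.23% of all genes. Because the 10 were chosen with earlier results of these data known, that contrast is not a test of the list. All 10 passed the filter on dim genes. Levels are log2 of the deposited intensity plus 16, and differences are Ovol2 BT minus control on that scale, which understates the folds of dim genes. With 2 arrays a group, no exact permutation test can go below p = 0.333, so tests are those of the fit across genes.

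The promoters of Cldn6, Cldn3 and Cldn4 are shown because, of the 10 claudins described, these 3 were higher on both Ovol2 BT arrays than on either control. That was so for 20.1% of all genes tested, so this choice does not set the 3 apart. They come from RefSeq's annotation of GRCm38.p6, run from 250 bases before to 50 after the start of the transcript, and are written in the direction of the gene. Capitals mark CACCTG or its reverse complement CAGGTG, the E-box bound by factors such as Zeb and Snail.
Cldn6 promoter, chr17:23679115-23679414, plus strand: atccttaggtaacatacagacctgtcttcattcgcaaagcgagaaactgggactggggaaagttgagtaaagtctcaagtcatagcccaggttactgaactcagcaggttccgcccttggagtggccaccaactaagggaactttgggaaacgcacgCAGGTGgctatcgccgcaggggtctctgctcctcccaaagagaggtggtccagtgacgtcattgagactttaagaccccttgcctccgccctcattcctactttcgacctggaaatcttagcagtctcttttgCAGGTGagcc
Cldn3 promoter, chr5:134985964-134986263, plus strand: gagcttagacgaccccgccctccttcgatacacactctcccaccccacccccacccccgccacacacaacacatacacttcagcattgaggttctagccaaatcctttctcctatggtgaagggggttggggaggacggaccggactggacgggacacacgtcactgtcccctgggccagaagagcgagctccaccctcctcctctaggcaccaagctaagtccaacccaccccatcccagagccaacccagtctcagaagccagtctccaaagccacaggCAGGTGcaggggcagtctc
Cldn4 promoter, chr5:134946885-134947184, minus strand: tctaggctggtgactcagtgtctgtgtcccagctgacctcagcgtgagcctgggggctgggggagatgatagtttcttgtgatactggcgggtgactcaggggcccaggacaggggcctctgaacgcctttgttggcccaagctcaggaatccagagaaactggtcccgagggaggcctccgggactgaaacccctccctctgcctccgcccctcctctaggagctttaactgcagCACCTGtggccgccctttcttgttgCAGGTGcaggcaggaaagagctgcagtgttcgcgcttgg

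The promoter table held 12 windows for 8 of the 10 genes; Cldn8 and Cldn23 had no entry. CACCTG was found on either strand in the windows of 4 of these genes, Cldn3, Cldn4, Cldn6 and Cldn7, that is in 4 of 12 windows. It occurs in 20.2% of the 32851 promoters of the table. The Ovol core CCGTTA was in 0 of the 12 windows and in 2.76% of all promoters, and the Grainyhead-like motif AACCGGTT was in 0 of 12 and in 0.146% of all. Both strands were searched, and the motifs did not overlap in these windows. Such matches describe letters only, and the arrays do not measure binding.

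Cldn6, a claudin of embryonic epithelia, had the largest difference among the claudin family genes tested. Its probe set, 10442327, gave intensities of 322 and 379 on the control arrays, against 1989 and 2539 in Ovol2 BT. Both Ovol2 BT arrays lay far above both controls, with no overlap. The log2 level was 8.51 (SD 0.16, n = 2) in controls and 11.14 (SD 0.25, n = 2) in Ovol2 BT skin. The difference of 2.63 corresponds to 6.19-fold (SE 0.22, 95% interval 2.08 to 3.18, limma adjusted p = 0.0945). It was thus many times the gap between arrays of one group, which was 0.22 in controls and 0.35 in Ovol2 BT. Between arrays of the same number it was 2.57 for replicate 1 and 2.69 for replicate 2, so it was about as large with the Y-linked signal as without it. By unadjusted p (3.93e-05) Cldn6 ranked as number 6 of the 14953 genes.

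Whether Cldn6 passed the threshold depended on the setting. Its limma adjusted p was 0.0295 with arrays centred on their medians, 0.0404 with array weights and 0.0486 with a filter at the 50th percentile. With the replicate number as a block it was 0.0459. Cldn6 did not pass in the other settings that kept all 4 arrays. Its adjusted p there ran from 0.0535 with quantile normalisation to 0.135 with cyclic loess. Leaving out 1 array left a single array in a group, which was taken to have the spread of the other group. The adjusted p of such fits is therefore not read as support for Cldn6. The difference was 2.81 without Ovol2 BT replicate 1 and 2.46 without Ovol2 BT replicate 2. It was 2.52 without control replicate 1 and 2.74 without control replicate 2. The difference stayed between 2.46 and 2.81 over the 16 alternatives.

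**Figure D1:**
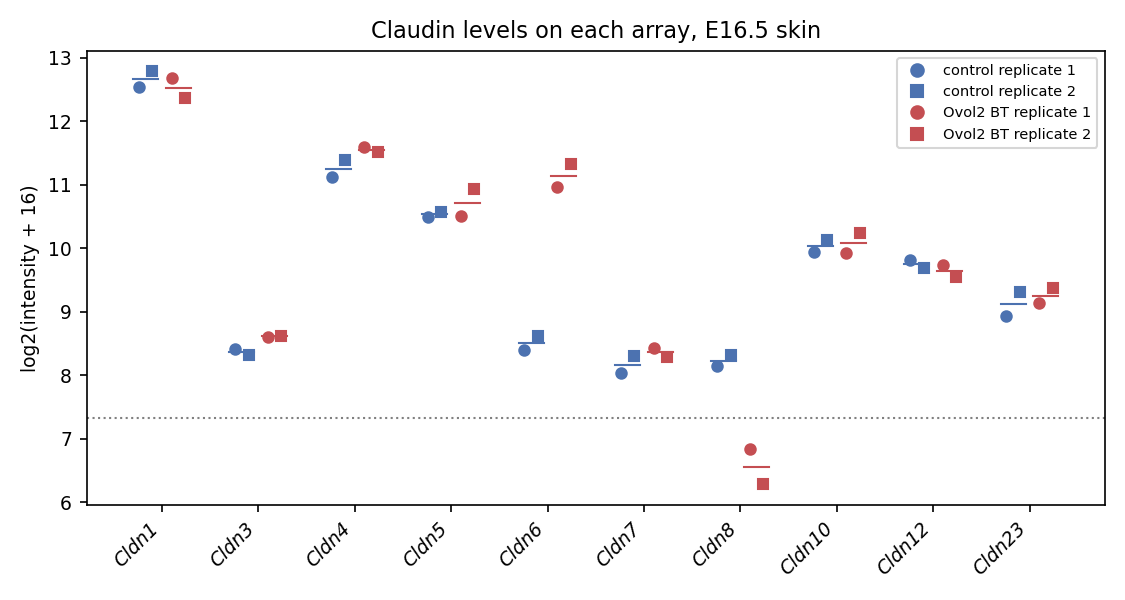
Levels of the 10 claudins on each array as log2(intensity + 16). Points are single arrays, short lines are group means and the dotted line is the filter level of 7.32; levels of different probe sets should not be ranked against each other. Cldn6 and Cldn8 are the genes with wide gaps between the groups.

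Genes listed here as periderm markers were higher on the same arrays, and whether they mark periderm alone was not tested. All 7 of the periderm list (Krt4, Krt6a, Krt8, Krt17, Krt18, Krt19 and Gabrp) were higher on both Ovol2 BT arrays than on either control. Such higher groups without overlap were found for 20.1% of all genes tested. The list was chosen with earlier results of these data known. The summed intensity of the list was 12951 and 11071 on the control arrays, against 28023 and 28562 in Ovol2 BT. Krt8, which encodes a keratin of simple epithelia, was called and lay 2.34 higher (SE 0.12, limma adjusted p = 0.0253, n = 2 arrays a group). It was the 1 of the 7 that passed, a call lost with cyclic loess and without an intensity trend. The median difference of the list was 0.90. No marker was at 0, and the part of periderm in the Cldn6 difference was not tested. In RNA of whole skin, more cells of a type and more RNA per cell cannot be told apart.

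Over the 14953 genes, the 3 whose levels ran closest to those of Cldn6 across the 4 arrays were Krt8, the iodide transporter gene Slc5a5 and the cytokine gene Il1a. Likeness was the Euclidean distance between log2 levels, each centred on its own mean, and it was 0.39, 0.92 and 0.98. Slc5a5 differed by 1.74 and Il1a by 2.42, and neither passed the threshold (limma adjusted p = 0.0945 and 0.281). With 4 arrays such likeness reflects mostly the gap between the groups.

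**Figure D2:**
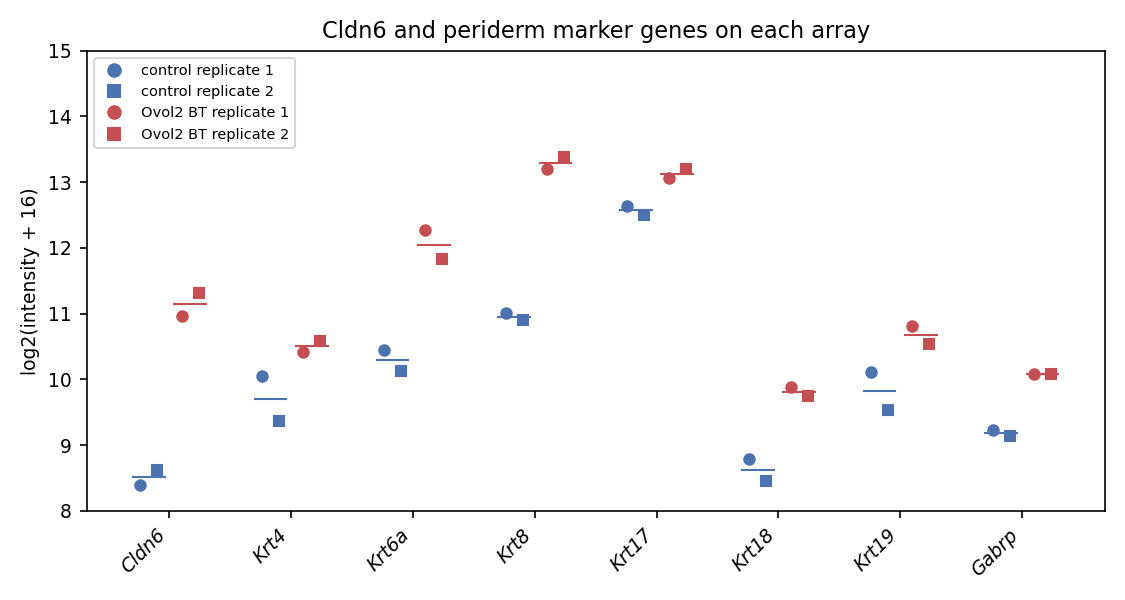
Cldn6 and the 7 periderm genes on each array as log2(intensity + 16). Points are single arrays and short lines are group means. All 8 genes were higher on both Ovol2 BT arrays than on either control array, as were 20.1% of all genes tested. Cldn6 and Krt8 had the widest gaps.

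The genes next to Cldn6 on chromosome 17 did not show a gap of that size. Cldn9, its closest neighbour and another claudin, differed by 0.18 (SE 0.18, limma adjusted p = 0.906). Tnfrsf12a on its other side differed by 0.18, Hcfc1r1 by 0.27 and 1520401A03Rik by 0.10, and none of these passed. Cldn6 and Cldn9 are similar in sequence, and whether their probes cross-hybridise was not tested.

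Cldn8, a claudin best known from the distal nephron and colon, had the largest difference toward a lower level in Ovol2 BT skin among the claudin family genes tested. Its probe set, 10440647, gave intensities of 266 and 302 on the control arrays, against 98.2 and 62.1 in Ovol2 BT. The groups did not overlap, and both Ovol2 BT arrays lay under the filter level of 7.32, with log2 levels of 6.84 and 6.29. The level was 8.23 (SD 0.12, n = 2) in controls and 6.56 (SD 0.39, n = 2) in Ovol2 BT skin, a difference of -1.67 or 3.17-fold (SE 0.22, 95% interval -2.21 to -1.13, limma adjusted p = 0.272). It was -1.30 between the arrays numbered 1 and -2.03 between those numbered 2. Because the Ovol2 BT values are dim, the size depended on the offset and was -1.85 with an offset of 1 and -1.28 with an offset of 64. Cldn8 passed with arrays centred on their medians (limma adjusted p = 0.0226), and over all alternatives its adjusted p reached 0.423. Its difference was -1.94 without Ovol2 BT replicate 1 and -1.39 without Ovol2 BT replicate 2.

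The genes most like Cldn8 over the 4 arrays were Wnt16, a Wnt ligand, 2310057N15Rik and Spink12, a protease inhibitor of the Kazal type. Their distances were 0.28, 0.44 and 0.46, and their differences -1.55, -1.32 and -1.61. None passed the threshold (limma adjusted p = 0.218, 0.655 and 0.432). Of the genes beside Cldn8 on chromosome 16, Cldn17 differed by 0.06 and Krtap24-1 by -0.12, both under the filter on dim genes. 2310079G19Rik, the second gene to one side, differed by 0.61 (SE 0.16, adjusted p = 0.789).

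Cldn1, the main sealing claudin of the epidermis, differed by less than its spread between arrays. Its intensities were 5908 and 7033 on the control arrays, against 6531 and 5249 in Ovol2 BT, so the groups overlapped. The difference was -0.14 (SE 0.15, 95% interval -0.51 to 0.23, limma adjusted p = 0.907). Its sign turned without Ovol2 BT replicate 2, to 0.019. The interval leaves room for a change of 0.51 downward and 0.23 upward. The summed intensity of keratinocyte markers was lower over the same arrays. The 7 basal and spinous markers on the array (Krt5, Krt14, Krt15, Krt1, Krt10, Dsg3 and Itga6) summed to 66783 and 67397 on the control arrays, against 52144 and 51113 in Ovol2 BT. Krt5 (-0.87), Krt14 (-0.66) and Krt15 (-1.41) carried the lower sum, while Krt1 and Krt10 each differed by -0.08, and Dsg3 and Itga6 lay above the control mean on Ovol2 BT replicate 1. None of the 7 passed (smallest limma adjusted p = 0.0597). The part of these markers in the level of Cldn1 was not tested.

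Cldn3 and Cldn4 are sealing claudins of many epithelia, and they are neighbours on chromosome 5. Cldn4 gave intensities of 2213 and 2650 on the control arrays, against 3074 and 2903 in Ovol2 BT. Cldn3 gave 323 and 302 on the control arrays, against 372 and 378 in Ovol2 BT. Both genes were higher on each Ovol2 BT array than on either control, but the gaps were small. Cldn4 differed by 0.30 (SE 0.16, 95% interval -0.09 to 0.69, limma adjusted p = 0.906) and Cldn3 by 0.25 (SE 0.16, 95% interval -0.16 to 0.66, limma adjusted p = 0.906). Without control replicate 2 the difference of Cldn4 was 0.43, and without control replicate 1 it was 0.17. In all, 4 of the 10 claudins had groups that did not overlap, 3 of them higher. Such groups were found for 34.2% of all genes tested, and higher ones for 20.1%.

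Cldn7, a claudin of the lateral membrane that binds the adhesion protein Epcam, differed by 0.19 (SE 0.18, 95% interval -0.25 to 0.64, limma adjusted p = 0.906). Its intensities were 246 and 299 on the control arrays, against 328 and 298 in Ovol2 BT, so the higher control matched the lower Ovol2 BT array. Cldn23, a claudin of differentiated epithelia, differed by 0.13 (SE 0.22, 95% interval -0.43 to 0.69, limma adjusted p = 0.939). It read 475 and 622 on the control arrays, against 545 and 649 in Ovol2 BT, and its difference was -0.063 without control replicate 1. In both genes the gap between the control arrays, 0.26 for Cldn7 and 0.38 for Cldn23, was larger than the difference between the groups.

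Transcripts of liver and gut were also measured, because several of these claudins are abundant in gut epithelium. The 11 liver markers on the array summed to 3247 and 3135 on the control arrays, against 8412 and 5932 in Ovol2 BT, and no marker was at 0. All 8 liver markers that passed the filter on dim genes were higher on both Ovol2 BT arrays than on either control, with a median difference of 1.19. Of these, 6 had an unadjusted p under 0.05 in limma. Over all genes tested, 20.1% were higher without overlap and 4.23% had an unadjusted p under 0.05. None of the 8 passed limma's test after adjustment. Afp, the fetal serum protein of the liver, differed by 3.04 (SE 0.49, limma adjusted p = 0.432). Alb, the albumin gene, differed by 1.31, and its level was higher on Ovol2 BT replicate 2 (10.25) than on replicate 1 (8.75). The 12 intestinal markers summed to 3027 and 3586 on the control arrays, against 11392 and 4022 in Ovol2 BT. Of the intestinal list Vil1, Fabp1, Fabp2, Cdx2, Cdh17 and Muc13 had means under the filter level, no marker was at 0, and Prap1 and Guca2b made up most of the high value on Ovol2 BT replicate 1. The part of such transcripts in the values of Cldn6, Cldn3, Cldn4, Cldn7, Cldn23 and the other claudins was not tested.

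Cldn10, whose isoforms form ion-selective channels in kidney and glands, had similar values in both groups. The probe set used read 967 and 1102 on the control arrays, against 957 and 1195 in Ovol2 BT. The groups overlapped, and the difference was 0.05 (SE 0.21, 95% interval -0.47 to 0.57, limma adjusted p = 0.969). A further probe set of Cldn10 gave 0.06. One annotated to both Cldn10 and its neighbour Dzip1 gave -0.32, and it was not used because its signal cannot be assigned to a gene. The sign of the Cldn10 difference turned without control replicate 1 (-0.043) and without Ovol2 BT replicate 2 (-0.11).

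Cldn12, a broadly expressed claudin, read 884 and 809 on the control arrays, against 838 and 734 in Ovol2 BT. It differed by -0.11 (SE 0.19, 95% interval -0.59 to 0.37, limma adjusted p = 0.939), with overlapping groups. The value was -0.01 (-0.0134) without Ovol2 BT replicate 2 and -0.20 without replicate 1.

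Cldn5, the main claudin of blood vessel endothelium, stood apart on 1 array. It read 1427 and 1511 on the control arrays, 1434 on Ovol2 BT replicate 1 and 1936 on Ovol2 BT replicate 2. The difference of 0.18 (SE 0.21, 95% interval -0.35 to 0.71, limma adjusted p = 0.910) came from that last array and was -0.034 without it. The 12 endothelial markers, among them Pecam1, Cdh5 and Kdr, summed to 19822 and 20670 on the control arrays, against 20241 and 22739 in Ovol2 BT, with none at 0. Of these, 10 lay above the control mean on Ovol2 BT replicate 2 and 6 on replicate 1, and no endothelial marker passed the test (limma: 0 of 12 at the adjusted threshold, and 0 at an unadjusted p under 0.05). The part of endothelium in the Cldn5 value was not tested.

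**Figure D3:**
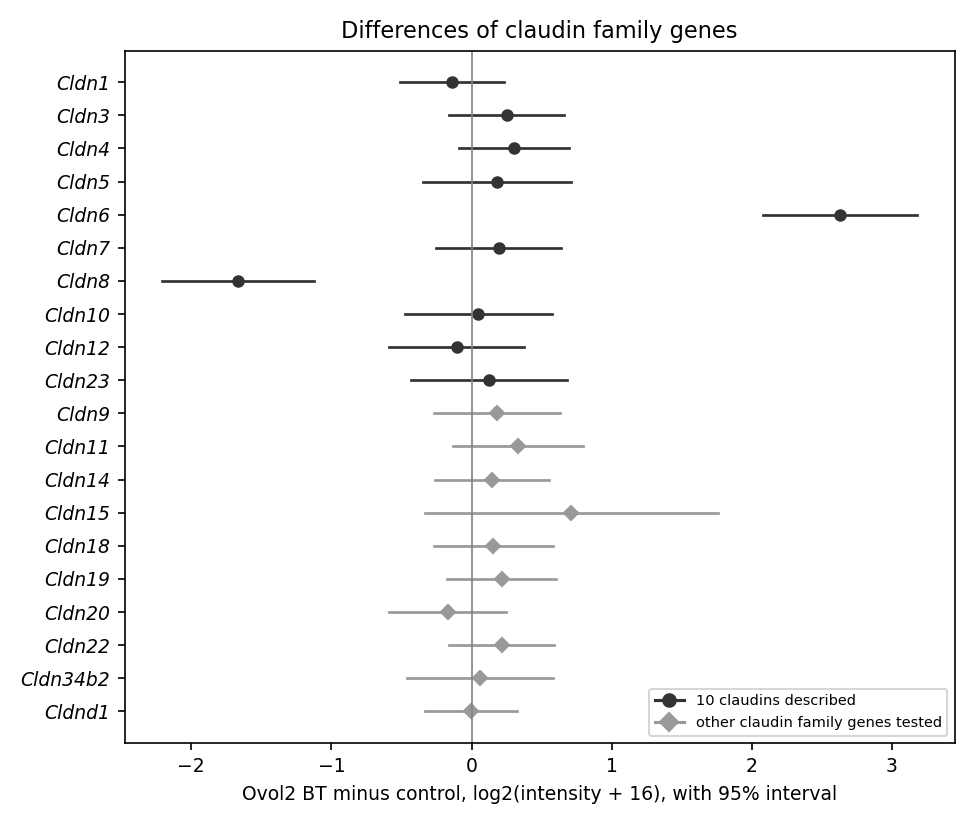
Difference between Ovol2 BT and control on the log2(intensity + 16) scale for the 10 claudins (black circles) and 10 other genes of the family (grey diamonds), with 95% intervals from limma that are not adjusted for the number of genes. The intervals of Cldn6 (2.08 to 3.18) and Cldn8 (-2.21 to -1.13) leave out 0, and those of the others include it.

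As a group the 10 claudins had 7 positive and 3 negative differences with a median of 0.15, against a median of 0.03 over all genes tested. The median was 0.0093 without control replicate 1 and 0.01 (0.0108) without Ovol2 BT replicate 2, so it rested on single arrays. Differences over 1 in size were found for 2 of the 10, and for 1.45% of all genes tested. Since the list was chosen with earlier results known, these shares do not test it. The members differ in where they are made, and a common level for the family is not implied by the median.

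Among other genes of the claudin family no difference reached the size of those of Cldn6 and Cldn8. Of 24 listed, 17 were on the array and 10 passed the filter on dim genes: Cldn9, Cldn11, Cldn14, Cldn15, Cldn18, Cldn19, Cldn20, Cldn22, Cldn34b2 and Cldnd1. None was called in limma, and 0 had an unadjusted p under 0.05. Their differences ran from -0.17 for Cldn20 to 0.71 for Cldn15, with a median of 0.17, close to that of the 10 claudins described. The groups did not overlap for 6 of these 10 genes, 5 of them higher, against 34.2% of all genes tested. Cldn15, a pore-forming claudin of the intestine, read 526 and 495 on the control arrays, 545 on Ovol2 BT replicate 1 and 1311 on Ovol2 BT replicate 2, so its difference also rested on that last array. Cldn11, which builds strands in myelin and testis, read 245 and 188 on the control arrays, against 286 and 263 in Ovol2 BT, a difference of 0.33 (SE 0.18, limma adjusted p = 0.906).

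Claudins work with other junction proteins, of which 28 were listed and 27 were tested. None was called in limma, and 3 had an unadjusted p under 0.05 (1 higher and 2 lower), against 4.23% of all genes tested. The median difference was -0.02. The groups did not overlap for 8 of the 27 genes, or 29.6%, against 34.2% of all genes tested. Occludin (Ocln), the other main strand protein, differed by 0.07 (SE 0.23) and tricellulin (Marveld2), which seals corners between 3 cells, by -0.09 (SE 0.17). Tjp1, the scaffold ZO-1 that binds claudin tails, differed by -0.40 (SE 0.21, limma adjusted p = 0.906), and Lsr, which recruits tricellulin, by 0.32 (SE 0.19, adjusted p = 0.906).

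The largest differences in that list belonged to the Crumbs polarity complex, which sets the position of the junction. Crb3, its membrane protein, read 256 and 278 on the control arrays, against 422 and 555 in Ovol2 BT. The groups did not overlap and the difference was 0.82 (SE 0.20, limma adjusted p = 0.765). Patj, a scaffold of the complex, read 352 and 452 on the control arrays, against 261 and 265 in Ovol2 BT, a difference of -0.57 (SE 0.19, adjusted p = 0.906). Mpp5, the scaffold that links Crb3 to Patj, differed by -0.98 (SE 0.60, adjusted p = 0.906). It read 349 and 507 on the control arrays, 403 on Ovol2 BT replicate 1 and 101 on Ovol2 BT replicate 2, so its value rested on 1 array. Marveld3, a relative of occludin, read 241 and 296 on the control arrays, against 184 and 199 in Ovol2 BT, a difference of -0.45 (SE 0.17, adjusted p = 0.906). Without Ovol2 BT replicate 1, 4 genes of the list passed (Crb3, Mpdz, Mpp5 and Tjp1), or 14.8%, a share near the 16.4% of all genes that passed in that setting.

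**Figure D4:**
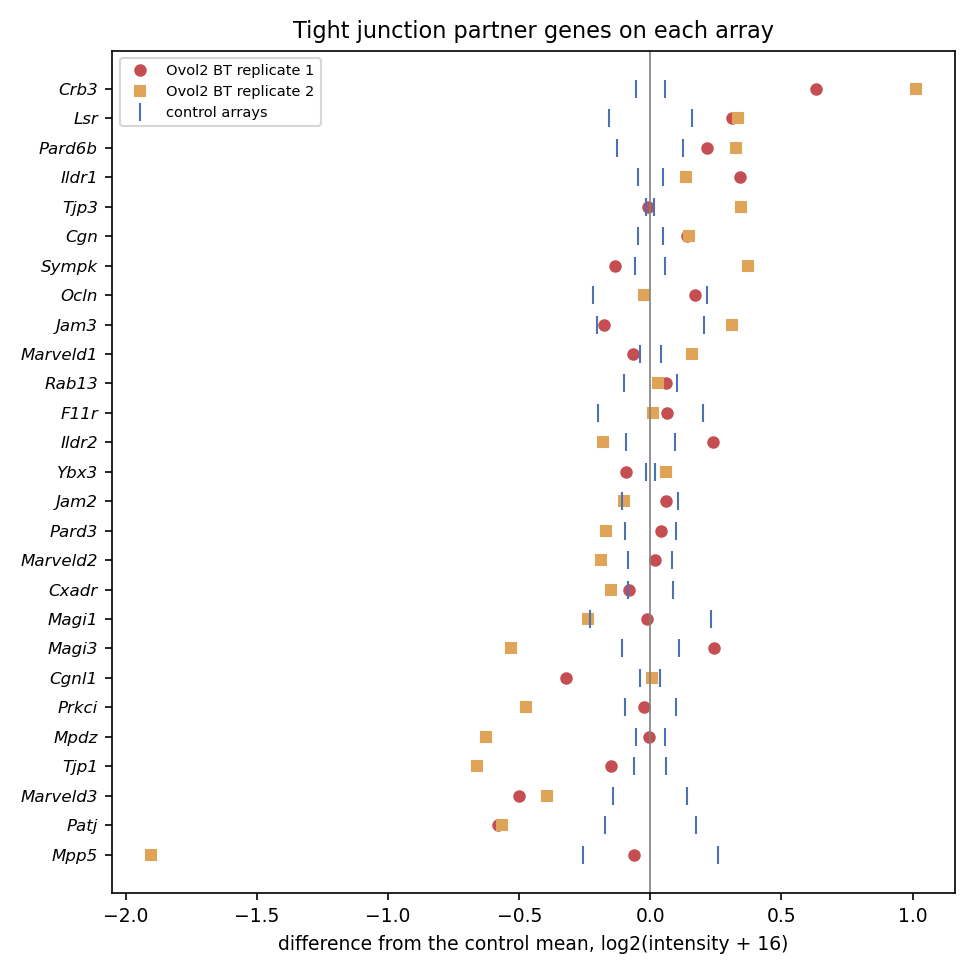
The 27 tight junction partner genes on each Ovol2 BT array as the difference from the control mean in log2(intensity + 16), ordered by the mean of both arrays. Blue ticks are the 2 control arrays around their own mean. Crb3 lies to the right on both Ovol2 BT arrays, and Mpp5 lies far to the left on replicate 2 only.

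Genes for proteins that hold claudins in place or cut junction proteins differed by at most 0.45 in size. Of 10 listed 9 were tested, and none was called in limma. An unadjusted p under 0.05 was found for 2, both higher, against 4.23% of all genes tested. The groups did not overlap for 3 of the 9 (Prss8, Lnx1 and Wnk4), or 33.3%, against 34.2% of all genes tested. Prss8, a membrane-bound protease needed for epidermal tight junctions, read 2879 and 2778 on the control arrays, against 3701 and 3590 in Ovol2 BT. Its difference was 0.36 (SE 0.12, limma adjusted p = 0.906). Lnx1, a ubiquitin ligase that acts on claudins, differed by 0.45 (SE 0.17, adjusted p = 0.906), and Wnk4, a kinase that acts on paracellular chloride flow, by -0.43 (SE 0.18, adjusted p = 0.906). Epcam, the partner of Cldn7, differed by -0.10 (SE 0.19, adjusted p = 0.939).

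Among 19 epithelial and mesenchymal transcription factors tested, Ovol2 was the only one called. It rose by 5.01 (SE 0.27, limma adjusted p = 0.0253), from levels of 7.59 and 8.29 to 12.93 and 12.96, which fits the labels; this call too was lost with cyclic loess and without an intensity trend. Whether its probes read the transgene was not tested. Grhl2, a Grainyhead-like factor that is known to activate claudin genes in epithelia, read 791 and 910 on the control arrays, against 523 and 522 in Ovol2 BT. Its difference was -0.68 (SE 0.19, adjusted p = 0.853), with no overlap. Tfap2c, an epidermal AP-2 factor, differed by -0.96 (SE 0.25, adjusted p = 0.798). Zeb2, a repressor of epithelial genes, differed by -0.35 (SE 0.31, adjusted p = 0.906), and it read 1608 on Ovol2 BT replicate 2 against 2740 to 3036 on the other 3 arrays.

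**Figure D5:**
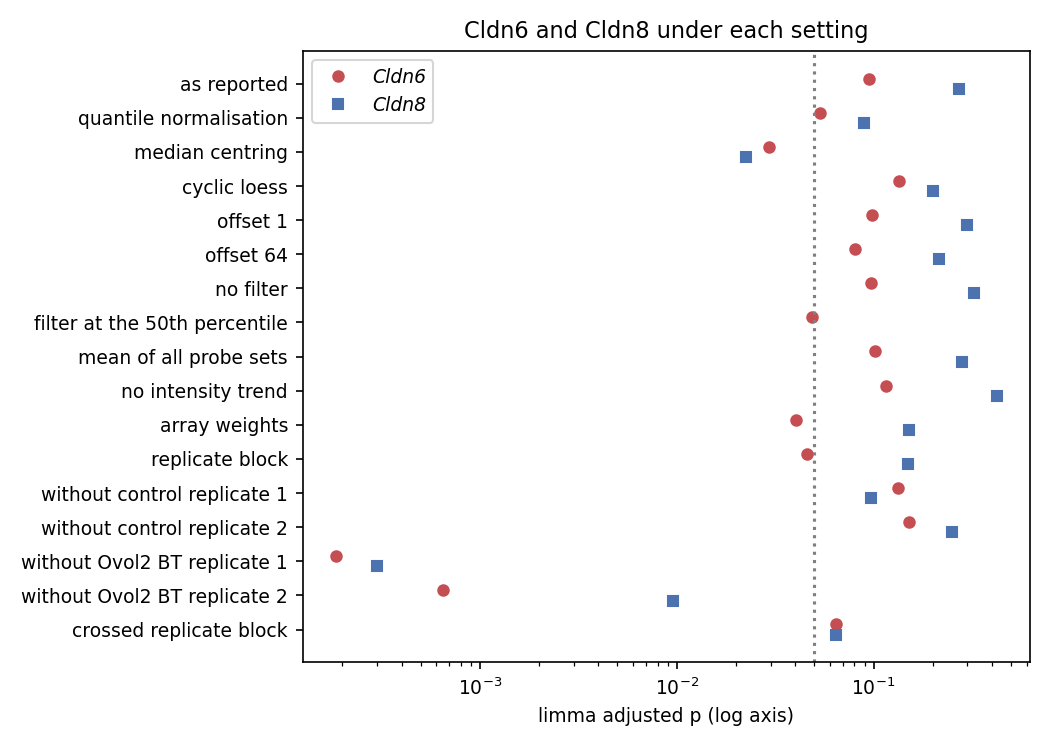
The adjusted p of Cldn6 (red circles) and Cldn8 (blue squares) in limma as reported and under 16 alternatives, on a log axis, with the threshold of 0.05 dotted. The lowest values of both are those without one of the Ovol2 BT arrays. In these fits the single array left was taken to have the spread of the control group, so they should not be read as support. Cldn8 has no value with the filter at the 50th percentile, which removes it.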

How the data were processed

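Skin RNA was measured on 4 Affymetrix whole-transcript arrays. The authors deposited linear intensity values per probe set, made with Affymetrix Expression Console 1.1.1 and PLIER 2.0, per the submitters' processing notes. Not given in the sources used here are the scaling between arrays and the genome build. With 2 arrays a group, precision is limited by their number.

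Of 35557 probe sets, 21789 had 1 gene symbol, 1621 several and 12147 no listed gene. Symbols were updated through RefSeq's GRCm38.p6 table (21698 matched). Values became log2(intensity + 16), and genes with a mean under the 25th percentile (7.32) were left out. Differences were fitted in limma 3.58.1 (R 4.3.3) with eBayes and an intensity trend, two-sided, over all 14953 genes, with Benjamini-Hochberg adjustment. The labels call the arrays biological replicates. The steps were tested on simulated data in 5 runs, with 200 genes changed in each. Of genes changed by 1 on the log2 scale 12% were called, and of those changed by 2, 63.6%. On average 4.2 unchanged genes were called in a run. The adjusted threshold depends on how many genes change, so these shares need not hold for the data, where 4 genes were called. A gene that was not called may thus still differ. Members and lists were chosen with earlier results of these data known. Named were all members, the other claudins that passed the filter, the 4 partners, stabilisers or factors with the largest difference in each list and any called, and the 3 genes most like Cldn6 or Cldn8; others were chosen after their values were seen. Alternatives were 3 scalings, 2 offsets, 2 filters, the mean of probe sets, no trend, array weights, the replicate number as a block and leaving out each array.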

Additional observations from a re-analysis of the deposited data

How the results depend on the processing

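The count of genes called, 4 as reported, was 10 with median centring, 0 with cyclic loess, 0 without an intensity trend, 9 with the replicate block, and between 4 and 2453 when 1 array was left out, the highest without Ovol2 BT replicate 1. The count of claudins called, 0 as reported, was 2 with median centring, 1 with the filter at the 50th percentile, 1 with array weights, 1 with the replicate block, and between 0 and 2 when 1 array was left out. That of tight junction partners, 0 as reported, was between 0 and 4 when 1 array was left out. Cldn6 and Cldn8 kept their direction under every alternative run, except that the filter at the 50th percentile removed Cldn8. Leaving out 1 array turned signs that were not called in any setting: Cldn1 lay between -0.30 and 0.019, Cldn5 between -0.034 and 0.39, Cldn10 between -0.11 and 0.21 and Cldn23 between -0.063 and 0.31, with Cldn10 at -0.043 without control replicate 1. The cause of these changes was not tested. Over all genes tested, arrays of the same number did not deviate together (r = -0.17), although they were alike in their Y-linked signal. What else they share was not tested. With the crossed replicate block, chosen after seeing the data, 5 genes and 0 claudins were called. The filter and the choice of probe set used all 4 arrays in every setting. The median difference of the claudins, 0.15 as reported, lay between 0.0093 and 0.23 when 1 array was left out.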
